A study of Mus musculus with 9 samples.

Results

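Cell cycle and DNA replication genes of mouse liver were examined as a list of 36 named genes, of which 35 had a probe set annotated with that symbol alone, out of 19938 genes measured in this way on the arrays. The list holds 5 genes of the passage from G1 to S phase (all 5 measured), 11 genes of DNA replication and nucleotide supply (all 11 measured) and 20 genes of mitosis (19 measured). Ccnb1, the mitotic cyclin B1, had no single-symbol probe set and was not analysed here. The members were named by function, with no measured value in the rule.

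Liver RNA came from 9 male mice, aged 6 weeks at the start, with 1 Affymetrix Mouse Gene 1.0 ST array each. The OB-TUDCA group (3 arrays) were ob/ob mice of the strain B6.V-Lepob/J, homozygous for the leptin mutation ob, which over 3 weeks received taurine-conjugated ursodeoxycholic acid (TUDCA), a hydrophilic bile acid, by gavage into the stomach, at 500 mg/kg 2 times a day. The OB-control group (3 arrays) were ob/ob mice of the same strain given tap water by the same gavage, and the N-control group (3 arrays) were C57BL/6J littermates given tap water likewise. All mice ate normal chow and were killed after 8 h of fasting. The methods give 6 mice for each group, so the arrays stand for 3 of 6. No C57BL/6J mice on TUDCA were among the samples, so what TUDCA did was measured only in mice that lack leptin in the whole body, and OB-TUDCA mice differ from N-control mice in both genotype and agent.

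A cell enters S phase when D-type and E-type cyclins with their kinases phosphorylate the retinoblastoma protein and release E2F factors, which switch on the genes for replication origins, nucleotide synthesis and the replication fork. The mitotic genes come on later, in G2 and M phase, under MuvB complexes with B-Myb and FoxM1, and code for cyclin B and its kinase, the spindle, the kinetochore checkpoint and the machinery of cytokinesis. Nearly all hepatocytes of an adult liver rest outside the cycle, with a capacity to re-enter it after tissue loss, and the few dividing cells can also be Kupffer cells, endothelial cells or blood cells. In RNA of whole liver, fewer cells in cycle and less RNA per cycling cell cannot be told apart.

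Ccne1 and Rrm2 were the only members called by the test, and Ube2c, Cdc20 and Mki67 are examples of the mitotic genes. Promoter sequences are shown for these 5 members. Each is the run of 250 bases before the RefSeq transcription start in mouse GRCm38.p6, written 5′ to 3′ on the strand of the gene. Capitals mark matches on either strand to 3 motifs of cell cycle promoters. These are the CHR element TTTGAA, the CCAAT box, and E2F-type sites, searched first as TTGGCGC, next with the letters TTCGCGC, then by TTGCCGC, and last in the form TTCCCGC. The first of these forms can share the letters TTGG with a reversed CCAAT box. The windows are chr7:38107491-38107740 (minus strand) for Ccne1, chr12:24708004-24708253 (plus strand) for Rrm2, chr2:164769679-164769928 (plus strand) for Ube2c, chr4:118437344-118437593 (minus strand) for Cdc20 and chr7:135716380-135716629 (minus strand) for Mki67, whose start lies 71 bases from that of the RefSeq gene.
Ccne1: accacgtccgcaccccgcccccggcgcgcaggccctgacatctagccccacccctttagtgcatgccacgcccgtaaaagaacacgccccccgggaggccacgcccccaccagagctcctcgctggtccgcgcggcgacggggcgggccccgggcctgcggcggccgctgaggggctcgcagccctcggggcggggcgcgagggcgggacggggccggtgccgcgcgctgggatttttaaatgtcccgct
Rrm2: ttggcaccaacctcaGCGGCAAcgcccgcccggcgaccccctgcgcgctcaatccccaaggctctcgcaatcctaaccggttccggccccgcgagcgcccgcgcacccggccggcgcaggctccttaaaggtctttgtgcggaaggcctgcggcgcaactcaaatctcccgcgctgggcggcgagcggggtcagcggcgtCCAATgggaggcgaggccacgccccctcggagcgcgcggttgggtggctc
Ube2c: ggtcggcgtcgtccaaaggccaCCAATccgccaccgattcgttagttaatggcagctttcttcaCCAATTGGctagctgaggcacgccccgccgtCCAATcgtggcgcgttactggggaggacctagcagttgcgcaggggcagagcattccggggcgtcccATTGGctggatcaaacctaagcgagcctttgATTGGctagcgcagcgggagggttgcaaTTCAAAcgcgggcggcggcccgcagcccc
Cdc20: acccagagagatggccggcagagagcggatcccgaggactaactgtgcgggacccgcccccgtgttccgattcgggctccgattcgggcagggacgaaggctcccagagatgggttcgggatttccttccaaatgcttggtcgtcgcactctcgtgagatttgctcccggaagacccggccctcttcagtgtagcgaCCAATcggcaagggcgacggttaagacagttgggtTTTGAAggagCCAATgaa
Mki67: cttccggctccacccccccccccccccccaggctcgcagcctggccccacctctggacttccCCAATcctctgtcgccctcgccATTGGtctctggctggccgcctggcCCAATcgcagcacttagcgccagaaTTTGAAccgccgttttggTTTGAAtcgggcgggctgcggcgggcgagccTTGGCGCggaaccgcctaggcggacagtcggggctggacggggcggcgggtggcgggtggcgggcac

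Of the 35 measured members, 28 had such a window. Among the 16 mitotic genes with a window, 8 (50.0%) held the CHR element and 14 (87.5%) a CCAAT box, against 16.0% and 33.8% of all 32851 windows. Among the 10 replication genes with a window, 5 (50.0%) held an E2F-type site, 8 a CCAAT box and 1 the CHR element, where 7.9% of all windows held an E2F-type site. A gene was counted when any of its windows held the motif, whereas the shares of all windows are per single window. Genes with several windows thus had more chances of a match, and these shares are unlike measures. The mitotic promoters shown all held the CHR element, unlike the mitotic genes as a whole. In Cdc20 the CHR element began 18 bases before the start and in Ube2c 29, with a CCAAT box 53 and 57 bases before the start. Cdc20 also held a CCAAT box 8 bases before the start, and Ube2c others at 228, 186, 183, 155 and 88 bases. Mki67 held 2 CHR elements, 3 CCAAT boxes and 1 E2F-type site, and Rrm2 held 1 CCAAT box and 1 E2F-type site. The Ccne1 window held none of these letters. A match describes letters only, since no factor's binding was measured.

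Signals are RMA log2 values, in which a difference of 1 is a factor of 2. The line above which a gene was taken as detected was set at 4.14, the 95th percentile of the mean signal of 1194 olfactory and vomeronasal receptor genes, which liver is not known to use. Of all genes, 63.5% lay above it. All 11 replication genes lay above it, 4 of the 5 G1/S genes (all but Ccne2) and 9 of the 19 mitotic genes. The detected mitotic genes were Aurka, Aurkb, Ccnb2, Cdc20, Cdk1, Cks2, Ube2c, Birc5 and Mki67, of which Mki67 passed only through OB-control replicate 3, with a mean of 4.21 over 9 arrays and of 4.06 over the 8 others; the remaining members kept their side of the line without that array. The other 10, among them Plk1, Ccna2, Top2a and Bub1, had mean signals that receptor genes also reach. The median of the mean signals was 4.12 for mitotic, 5.36 for replication and 5.04 for G1/S genes, and 4.95 for all genes. Signals of different probe sets depend on their probes, so they give no order of RNA amounts between genes.

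**Figure D1:**
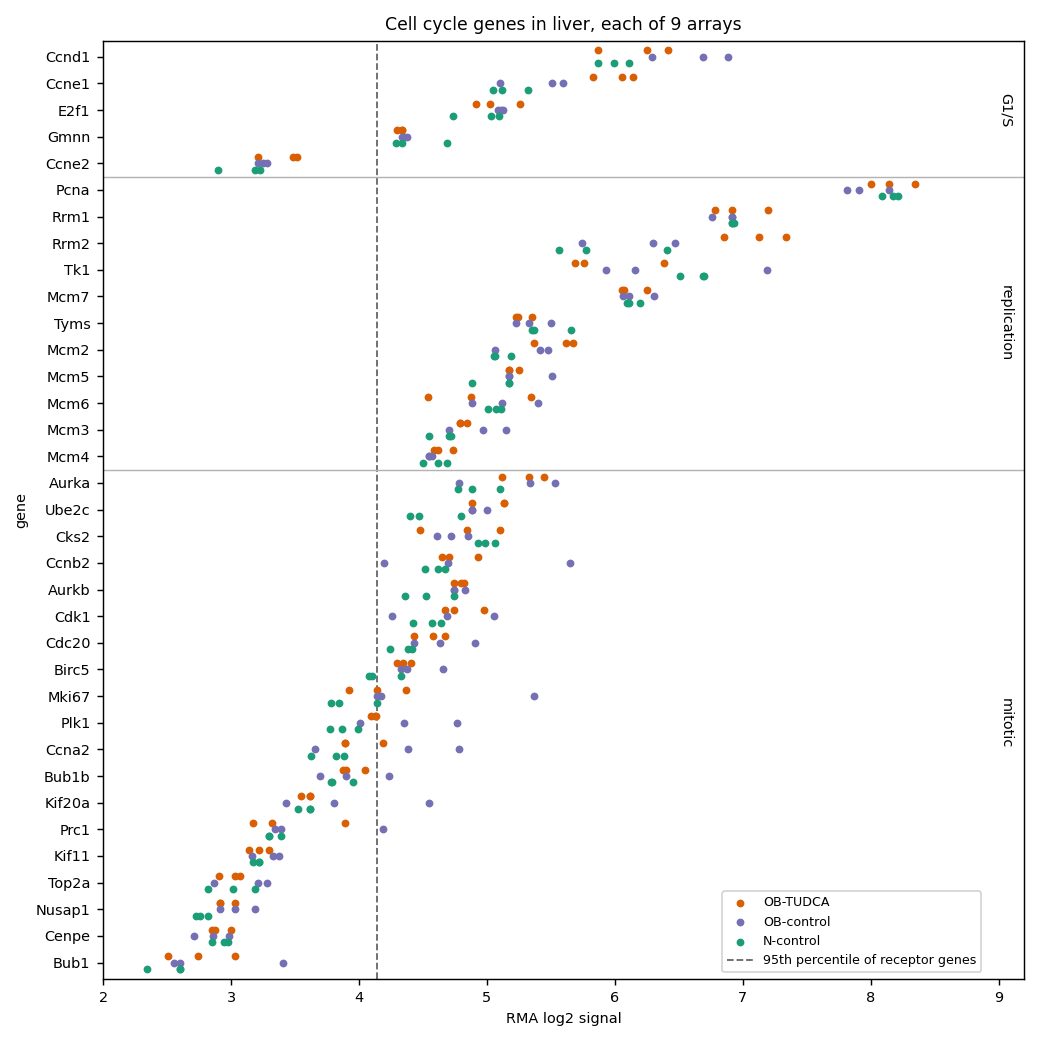
RMA log2 signal (horizontal axis) of the 35 measured genes (rows) on each of the 9 arrays, with OB-TUDCA, OB-control and N-control arrays as coloured points in rows one above the other, and the 95th percentile of olfactory and vomeronasal receptor genes (4.14) as a dashed line. All 11 replication genes have means right of the line, and 10 of the 19 mitotic genes left of it; the position of one gene against another depends on its probes.

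Groups were compared in a limma fit over all 19938 genes, with Benjamini-Hochberg adjustment and a threshold of 0.05 on the adjusted p. For OB-TUDCA against OB-control, 0 of 35 members were called, where 0.301% of all genes were called, 0.115% higher and 0.186% lower. The count of all genes behind that share was 60 and ran from 0 to 135 with 1 array left out, at 0 without OB-TUDCA replicate 2 or 3, OB-control replicate 1 or N-control replicate 2 and at 135 without OB-TUDCA replicate 1. An unadjusted p under 0.05 was reached by 2 members upward and 1 downward, against 6.26% and 5.72% of all genes. For OB-control against N-control, 0 members were called as well, where 0.948% of all genes were called, 0.456% higher and 0.492% lower. An unadjusted p under 0.05 was reached by 8 members upward and 0 downward, against 6.55% and 5.59% of all genes. For OB-TUDCA against N-control, 2 members were called higher (Ccne1 and Rrm2) and 0 lower, where 3.24% of all genes were called, 1.35% higher and 1.89% lower. Here 6 members upward and 1 downward reached an unadjusted p under 0.05, against 10.4% and 8.15% of all genes. The comparisons share arrays, so they are given side by side and not set against each other.

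The 3 arrays of each group did not overlap for 3 members in OB-TUDCA against OB-control, all 3 higher (7.26% of all genes higher and 6.53% lower), and for 5 higher and 1 lower in OB-control against N-control (8.49% and 6.77%). In OB-TUDCA against N-control, 11 members were higher and 1 lower without overlap (11.8% and 8.95%). Past a 1.5-fold difference of means lay 2 members in OB-TUDCA against OB-control, both higher (1.11% of all genes higher and 1.3% lower), 2 in OB-control against N-control, both higher (1.39% and 1.42%), and 2 higher and 1 lower in OB-TUDCA against N-control (2.27% and 2.51%). The median log2 difference of the 35 members was -0.07 for OB-TUDCA against OB-control, 0.21 for OB-control against N-control and 0.15 for OB-TUDCA against N-control, where the medians of all genes were 0.01, 0.02 and 0.04.

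**Figure D2:**
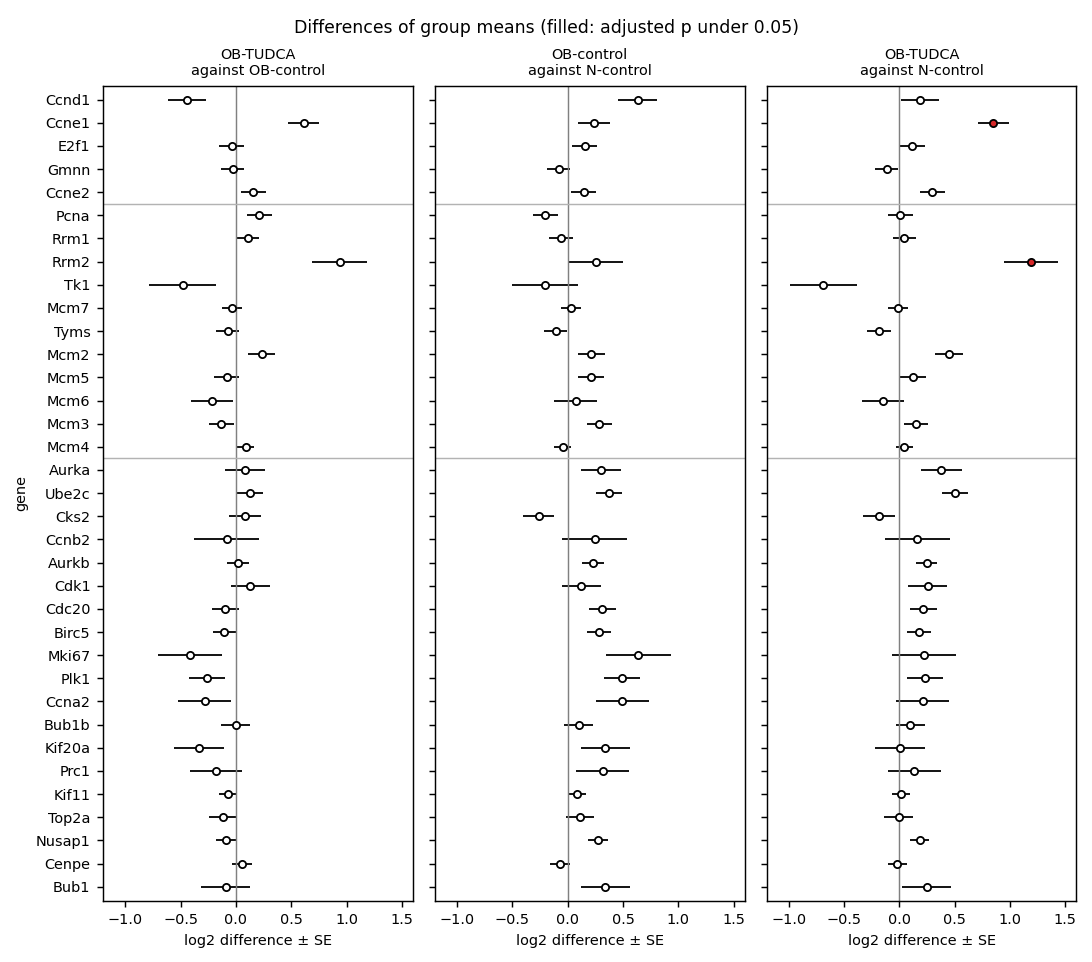
Difference of group means on the log2 scale with its standard error (horizontal axis) for the 35 measured genes (rows, with lines between G1/S, replication and mitotic genes), for OB-TUDCA against OB-control (left), OB-control against N-control (middle) and OB-TUDCA against N-control (right). Filled points passed an adjusted p of 0.05, which are Ccne1 (0.85) and Rrm2 (1.19) in the right panel.

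Among the G1/S genes, Ccne1 rose in OB-TUDCA livers against N-control livers, and Ccnd1 had its highest signals in OB-control livers. Ccne1 codes for cyclin E1, which activates Cdk2 at the entry to S phase. Its signal was 5.83, 6.06 and 6.14 in OB-TUDCA livers, 5.59, 5.10 and 5.51 in OB-control livers and 5.12, 5.32 and 5.05 in N-control livers. Every OB-TUDCA array lay above all 6 others. The log2 difference was 0.85 (SE 0.14, 1.80-fold, limma adjusted p = 0.0155) for OB-TUDCA against N-control. It was 0.61 (SE 0.14, 1.53-fold, adjusted p = 0.109) for OB-TUDCA against OB-control and 0.24 (SE 0.14, adjusted p = 0.562) for OB-control against N-control, neither past the threshold.

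Ccnd1 codes for cyclin D1, the cyclin that mitogens induce in hepatocytes during regeneration. Its signal was 6.41, 5.87 and 6.25 in OB-TUDCA livers, 6.69, 6.29 and 6.88 in OB-control livers and 6.11, 5.99 and 5.87 in N-control livers. OB-control and N-control arrays did not overlap, whereas those of OB-TUDCA overlapped with both. The log2 difference was -0.44 (SE 0.17, adjusted p = 0.343) for OB-TUDCA against OB-control and 0.63 (SE 0.17, 1.55-fold, adjusted p = 0.162) for OB-control against N-control.

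The other 3 G1/S genes differed less. Ccne2, the other E-type cyclin, averaged 3.40 ± 0.17 in OB-TUDCA, 3.25 ± 0.04 in OB-control and 3.10 ± 0.18 in N-control livers (SD, n = 3 each), below the line of detection throughout. E2f1, an activating E2F factor, averaged 5.07 ± 0.18 in OB-TUDCA, 5.11 ± 0.02 in OB-control and 4.95 ± 0.19 in N-control livers. Gmnn, which codes for geminin, the inhibitor of origin licensing, averaged 4.32 ± 0.02 in OB-TUDCA, 4.35 ± 0.02 in OB-control and 4.43 ± 0.22 in N-control livers, with N-control replicate 1 (4.69) above the 8 others. The adjusted p of these 3 genes was at least 0.194 in every comparison.

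Among the replication genes, Rrm2 rose in OB-TUDCA livers against N-control livers and 10 others were not called in any comparison. Rrm2 codes for the small subunit of ribonucleotide reductase, the enzyme that makes deoxyribonucleotides and whose level is tied to S phase. Its signal was 6.85, 7.34 and 7.13 in OB-TUDCA livers, 6.30, 5.74 and 6.47 in OB-control livers and 6.41, 5.78 and 5.56 in N-control livers. The OB-TUDCA arrays lay above all others, and the spread within OB-control and N-control was wide. The log2 difference was 1.19 (SE 0.25, 2.28-fold, adjusted p = 0.0333) for OB-TUDCA against N-control. It was 0.94 (SE 0.25, 1.91-fold, adjusted p = 0.148) for OB-TUDCA against OB-control and 0.26 (SE 0.25, adjusted p = 0.744) for OB-control against N-control.

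The calls of Ccne1 and Rrm2 depended on single arrays. With 1 array left out at a time, the adjusted p of Ccne1 in OB-TUDCA against N-control ran between 0.00747 and 0.0705 and was lost without OB-TUDCA replicate 2 (0.0698), OB-TUDCA replicate 3 (0.0557) or N-control replicate 1 (0.0705). That of Rrm2 ran between 0.0263 and 0.134 and was lost without OB-TUDCA replicate 2 (0.134) or 3 (0.0929), OB-control replicate 1 (0.0627), or N-control replicate 2 (0.109) or 3 (0.0893). The log2 differences themselves stayed between 0.78 and 0.94 for Ccne1 and between 1.01 and 1.44 for Rrm2. Over all genes, the count called in this comparison was 646 and ran from 193 to 788 with 1 array left out. It was lowest without OB-TUDCA replicate 2.

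Rrm1, the large subunit of the same enzyme, was not called. Its signal was 6.91, 7.20 and 6.78 in OB-TUDCA livers, 6.75, 6.91 and 6.91 in OB-control livers and 6.91, 6.93 and 6.91 in N-control livers, a log2 difference of 0.05 (SE 0.11, adjusted p = 0.864) for OB-TUDCA against N-control. Of the 9 deposited Rrm1 values, 5 were identical, as the median polish of RMA can give. Values were identical on at least 3 arrays for 10 of the 40 member probe sets (25.0%), against 36.8% of all single-symbol probe sets. Those of Aurkb, Nusap1 and Ube2c were among these 10.

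Tk1, the thymidine kinase of the salvage pathway, was 6.38, 5.76 and 5.69 in OB-TUDCA livers, 6.15, 7.19 and 5.93 in OB-control livers and 6.51, 6.69 and 6.69 in N-control livers. All OB-TUDCA arrays lay below all N-control arrays and OB-control replicate 2 was the highest of all 9. The log2 difference for OB-TUDCA against N-control was -0.69 (SE 0.30, unadjusted p = 0.047, adjusted p = 0.263), and both probe sets of the gene had the same sign. Tyms, thymidylate synthase of the de novo pathway, averaged 5.27 ± 0.07 in OB-TUDCA, 5.35 ± 0.14 in OB-control and 5.46 ± 0.17 in N-control livers, which did not pass the test either (adjusted p = 0.402 for OB-TUDCA against N-control).

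Of the 6 subunits of the MCM complex, the replicative helicase that is loaded at origins, 0 were called in any comparison. Mcm2 was 5.37, 5.62 and 5.67 in OB-TUDCA livers, 5.42, 5.06 and 5.47 in OB-control livers and 5.06, 5.06 and 5.19 in N-control livers. OB-TUDCA and N-control arrays were apart (log2 difference 0.45, SE 0.12, adjusted p = 0.0924). Mcm3 was 4.79, 4.79 and 4.84 in OB-TUDCA livers, 5.15, 4.70 and 4.97 in OB-control livers and 4.72, 4.70 and 4.54 in N-control livers (OB-control against N-control 0.28, SE 0.11, adjusted p = 0.345). Mcm4, Mcm5, Mcm6 and Mcm7 had log2 differences between -0.22 and 0.21 in all 3 comparisons. The widest spread was that of Mcm6 in OB-TUDCA livers, at 4.54, 4.87 and 5.34. Pcna, the sliding clamp of the replication fork, was 8.15, 8.35 and 8.00 in OB-TUDCA livers, 7.82, 8.14 and 7.91 in OB-control livers and 8.18, 8.21 and 8.09 in N-control livers, with overlap between all groups and nearly the same signals on its 2 probe sets.

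**Figure D3:**
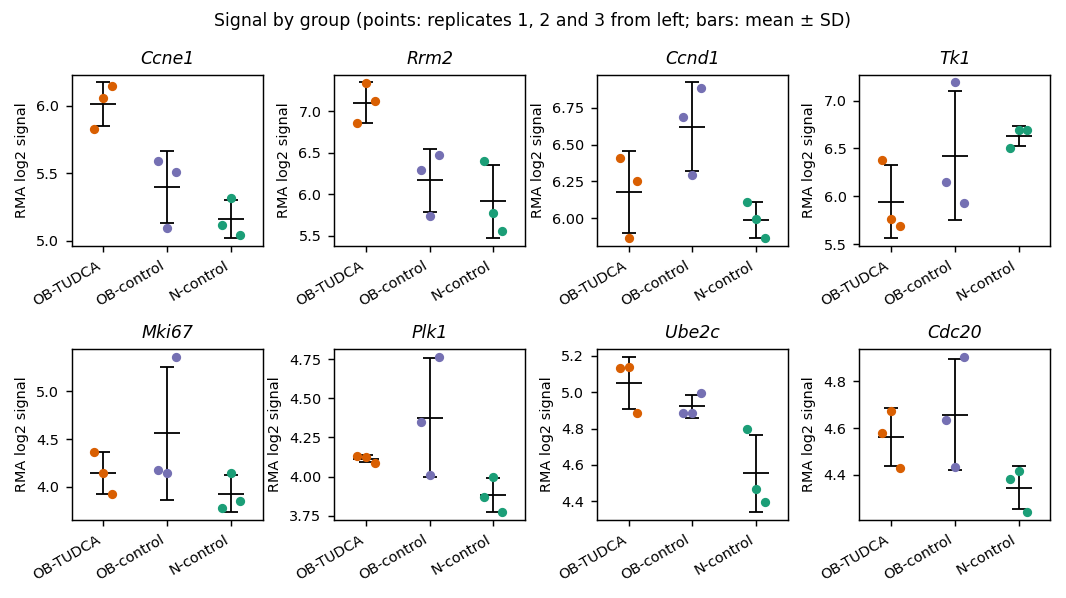
RMA log2 signal (vertical axes, which do not start at 0 and differ between panels) of 8 genes in OB-TUDCA, OB-control and N-control livers, with 1 point per array and bars for the mean ± SD (n = 3 each). In Ccne1 and Rrm2 the OB-TUDCA points lie above all others, in Mki67 and Plk1 the highest point is OB-control replicate 3, and in Ube2c the N-control points lie lowest.

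Most mitotic genes had their highest mean in OB-control livers, with a wide spread within that group, and 0 of 19 were called in any comparison. Of the 19 genes, the mean of OB-control livers lay above that of N-control livers for 17 and below it for 2, against 57% and 42.9% of all genes, with a median log2 difference of 0.28. At an unadjusted p under 0.05 it was higher for 6 (Nusap1, Ube2c, Plk1, Birc5, Cdc20 and Aurkb) and lower for 0, against 6.55% and 5.59% of all genes. OB-control had the highest of the 3 group means for 13 of 19 genes (68.4%, against 31.5% of all genes). N-control had the lowest for 16 of 19, and also for 8706 of all 19938 genes. For OB-TUDCA against OB-control, the mean was lower for 13 of 19 and higher for 6 (46.3% and 53.6% of all genes), with a median of -0.09. None lay apart from the OB-control arrays (7.26% of all genes higher and 6.53% lower). For OB-TUDCA against N-control, the mean was higher for 16 of 19 and lower for 3 (59.6% and 40.3% of all genes), with a median of 0.18. Here 7 lay higher and 0 lower without overlap (11.8% and 8.95% of all genes).

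Within OB-control, replicate 3 was mostly the highest array. It was the highest of all 9 arrays for 13 of 19 mitotic genes (68.4%), against 9.3% of all genes, and was above both other OB-control arrays for 15 (78.9%, against 28.1%). Its median gap to the mean of the other OB-control arrays was 0.44 and its largest 1.21. OB-control replicate 2 lay below both others for 14 of 19 (73.7%, against 28.3%). The widest of the 3 within-group spreads was that of OB-control for 16 of 19 genes, against 34.8% of all genes. Averaged over the 19 genes, the signal was 4.13, 4.03 and 3.92 in OB-TUDCA livers, 4.08, 3.84 and 4.41 in OB-control livers and 3.86, 3.89 and 3.83 in N-control livers, so that OB-control replicate 2 lay within the N-control range.

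Without OB-control replicate 3, the mean of OB-control livers was above that of N-control livers for 14 of the 19 mitotic genes, against 17 with all arrays, and the mean of OB-TUDCA livers was below that of OB-control livers for 8, against 13 with all arrays. Without OB-control replicate 2, that last count was 16, and 2 mitotic genes passed the threshold in OB-control against N-control. Of all genes, 266 passed it without that array, against 189 with all arrays. The 2 mitotic genes were Ccna2 (log2 difference 0.80, adjusted p = 0.0478) and Plk1 (0.68, adjusted p = 0.0482). Both had mean signals below the line of detection. Shares of all genes by direction were not taken with an array left out.

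**Figure D4:**
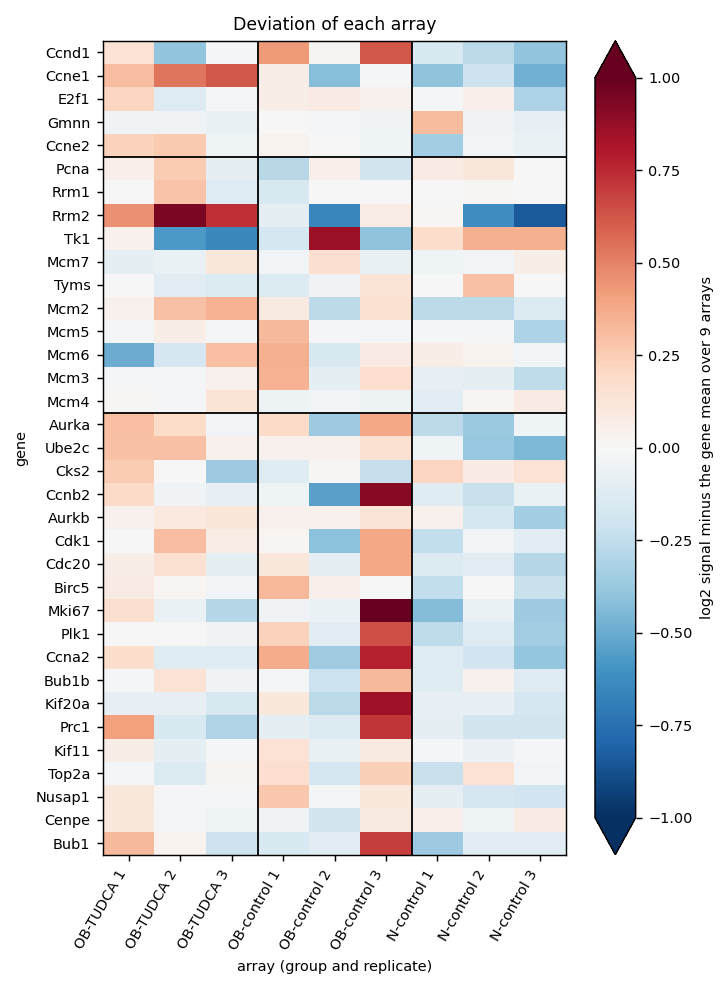
Deviation of each array (columns) from the mean of the gene over the 9 arrays, on the log2 scale (colour, which ends at 1 and -1), for the 35 measured genes (rows, with lines between G1/S, replication and mitotic genes). OB-control replicate 3 is the highest array for 13 of the 19 mitotic genes, and the OB-TUDCA arrays are the highest for Ccne1 and Rrm2.

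Of the genes that open mitosis, Ccnb2 (cyclin B2) was 4.93, 4.70 and 4.65 in OB-TUDCA livers, 4.69, 4.19 and 5.65 in OB-control livers and 4.61, 4.51 and 4.67 in N-control livers. OB-control replicate 3 held the highest and OB-control replicate 2 the lowest of all 9 values. Its partner kinase Cdk1 was 4.67, 4.98 and 4.75 in OB-TUDCA livers, 4.69, 4.26 and 5.05 in OB-control livers and 4.42, 4.64 and 4.57 in N-control livers, again with OB-control replicates 3 and 2 at the ends. Ccna2 (cyclin A2), which acts in S phase and G2, was 4.19, 3.89 and 3.89 in OB-TUDCA livers, 4.38, 3.65 and 4.78 in OB-control livers and 3.88, 3.82 and 3.63 in N-control livers. Cks2, a small subunit that binds cyclin-dependent kinases, went the other way, at 4.81 ± 0.31 in OB-TUDCA, 4.73 ± 0.12 in OB-control and 4.99 ± 0.07 in N-control livers (SD, n = 3 each), with OB-control arrays below N-control arrays (-0.26, SE 0.14, adjusted p = 0.514).

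Mki67, the gene of the proliferation marker Ki-67, was 4.37, 4.14 and 3.92 in OB-TUDCA livers, 4.17, 4.14 and 5.37 in OB-control livers and 3.78, 4.14 and 3.85 in N-control livers. OB-control replicate 3 stood alone, and the other 8 arrays lay within 3.78 to 4.37. The log2 difference was 0.64 (SE 0.29, adjusted p = 0.422) for OB-control against N-control and 0.24 when OB-control replicate 3 was left out. Kif20a, a kinesin of cytokinesis, had the same shape, with 3.62, 3.62 and 3.54 in OB-TUDCA livers, 3.80, 3.43 and 4.54 in OB-control livers and 3.62, 3.62 and 3.52 in N-control livers. So did Prc1, which bundles microtubules of the central spindle, with 4.19 in OB-control replicate 3 and at most 3.89 elsewhere, and the checkpoint kinase Bub1, with 3.40 there and at most 3.03 elsewhere.

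Among the mitotic kinases and their partners, Plk1 was 4.13, 4.12 and 4.09 in OB-TUDCA livers, 4.35, 4.01 and 4.77 in OB-control livers and 3.87, 3.99 and 3.78 in N-control livers. OB-control and OB-TUDCA arrays both lay above all N-control arrays, by 0.49 (SE 0.16, unadjusted p = 0.013, adjusted p = 0.239) for OB-control and by 0.23 (SE 0.16, adjusted p = 0.497) for OB-TUDCA. Aurka, the spindle pole kinase, was 5.45, 5.33 and 5.12 in OB-TUDCA livers, 5.34, 4.78 and 5.53 in OB-control livers and 4.88, 4.77 and 5.10 in N-control livers. Aurkb and Birc5 (survivin) are subunits of the chromosomal passenger complex. Aurkb averaged 4.79 ± 0.04 in OB-TUDCA, 4.77 ± 0.05 in OB-control and 4.54 ± 0.19 in N-control livers. Birc5 averaged 4.35 ± 0.06 in OB-TUDCA, 4.45 ± 0.18 in OB-control and 4.17 ± 0.14 in N-control livers, with OB-control replicate 1 (4.65) and not replicate 3 (4.33) the highest.

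Cdc20 and Ube2c serve the anaphase-promoting complex, the first as its activator and the second as its ubiquitin-conjugating enzyme. Ube2c was 5.13, 5.14 and 4.88 in OB-TUDCA livers, 4.88, 4.88 and 5.0 in OB-control livers and 4.80, 4.47 and 4.40 in N-control livers. Here the 6 arrays of ob/ob mice lay above the 3 N-control arrays with little spread, and OB-control replicate 3 did not stand out. Part of that small spread is a tie, since OB-control replicates 1 and 2 and OB-TUDCA replicate 3 held the identical deposited value (4.88). The log2 difference was 0.50 (SE 0.12, 1.41-fold, adjusted p = 0.0565) for OB-TUDCA against N-control, the closest to the threshold of any member not called, and 0.37 (SE 0.12, adjusted p = 0.223) for OB-control against N-control. Cdc20 was 4.58, 4.67 and 4.43 in OB-TUDCA livers, 4.63, 4.43 and 4.91 in OB-control livers and 4.38, 4.41 and 4.24 in N-control livers, also with all ob/ob arrays above the N-control arrays (OB-control against N-control 0.31, SE 0.12, unadjusted p = 0.031, adjusted p = 0.347).

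The other mitotic genes had mean signals below the line of detection, as did Ccna2, Plk1, Kif20a, Prc1 and Bub1 described before. Nusap1, which binds spindle microtubules, was 3.03, 2.91 and 2.91 in OB-TUDCA livers, 3.19, 2.91 and 3.03 in OB-control livers and 2.82, 2.75 and 2.73 in N-control livers, apart in both comparisons with N-control at a low signal (OB-control against N-control 0.27, SE 0.09, adjusted p = 0.221). Bub1b, a checkpoint kinase, Kif11, the kinesin that pushes spindle poles apart, and Top2a, the topoisomerase that separates sister chromatids, had log2 differences between -0.12 and 0.11 in all 3 comparisons. Cenpe, a kinetochore kinesin, averaged 2.91 ± 0.08 in OB-TUDCA, 2.85 ± 0.14 in OB-control and 2.92 ± 0.06 in N-control livers.

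The pattern of OB-control replicate 3 was also present in mitotic genes outside the list. In a set of 56 other genes of mitotic entry, spindle and cytokinesis, the OB-control mean exceeded that of N-control for 45 (57% of all genes), with 0 called and a median of 0.14, and an unadjusted p under 0.05 was reached by 11 upward and 0 downward (6.55% and 5.59% of all genes). For OB-TUDCA against OB-control, the mean was lower for 38 of the 56 (46.3% of all genes), with 0 called and a median of -0.06. Here 1 gene upward and 6 downward had an unadjusted p under 0.05 (6.26% and 5.72% of all genes), and 3 lay higher and 5 lower without overlap (7.26% and 6.53%). OB-control replicate 3 was the highest of 9 arrays for 27 of the 56 (48.2%), and above both other OB-control arrays for 36 (64.3%), while replicate 2 was below both for 39 (69.6%). Averaged over the 56 genes, the signal was 4.45, 4.47 and 4.38 in OB-TUDCA livers, 4.53, 4.35 and 4.70 in OB-control livers and 4.37, 4.41 and 4.29 in N-control livers. In the replication genes no such order was found, since OB-control replicate 3 was the highest array for 0 of the 11 members and for 4 of 42 other genes of origin licensing and the replication machinery (9.5%).

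**Figure D5:**
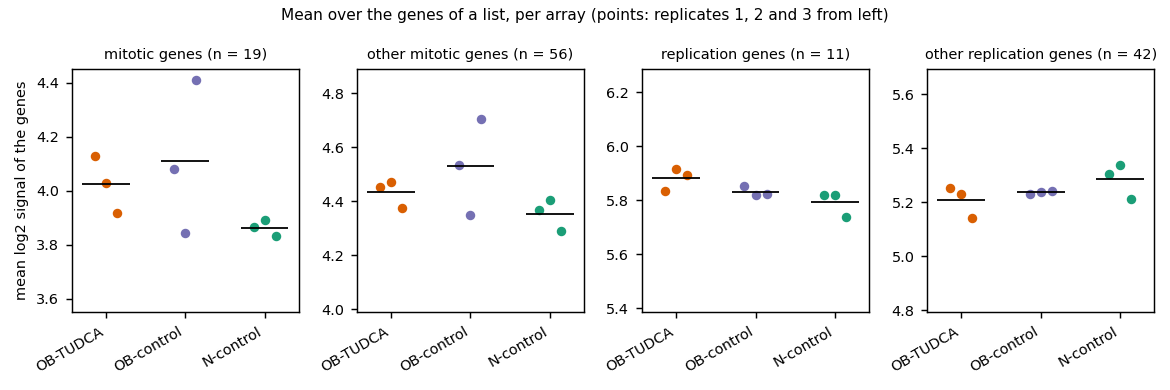
Mean log2 signal per array (vertical axes, which do not start at 0 but span the same range) over the 19 mitotic and 11 replication genes of the list and over 56 other mitotic and 42 other replication genes, for OB-TUDCA, OB-control and N-control livers; points are arrays and lines are group means. OB-control replicate 3 is highest in both mitotic panels (4.41 and 4.70) and in neither replication panel.

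Outside the list, 19 other cyclins and cyclin-dependent kinases were measured. Of these, 0 were called in OB-TUDCA against OB-control or in OB-control against N-control (0.301% and 0.948% of all genes). In OB-TUDCA against N-control, 0 were called higher and 2 lower (1.35% and 1.89%). These were Ccnh, whose product cyclin H activates the Cdk-activating kinase of transcription factor TFIIH, and Ccnc, a cyclin of the Mediator kinase module, and neither drives the cycle as cyclins D, E, A or B do. Ccnh was 6.87, 7.01 and 6.87 in OB-TUDCA livers, 7.09, 7.22 and 7.33 in OB-control livers and 7.42, 7.50 and 7.45 in N-control livers, with no overlap between any of the groups (OB-TUDCA against N-control -0.54, SE 0.08, adjusted p = 0.0115). Ccnc had a difference of -0.65 (SE 0.10, adjusted p = 0.0101). Ccnh missed the threshold without N-control replicate 2 (adjusted p = 0.0508) and Ccnc without N-control replicate 1 (0.0504).

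The kinases that bind cyclins E and D were not called. Cdk2, the kinase of cyclin E1, averaged 6.36 ± 0.08 in OB-TUDCA, 6.27 ± 0.19 in OB-control and 6.60 ± 0.05 in N-control livers (SD, n = 3 each), with an adjusted p of 0.24 for OB-TUDCA against N-control. Cdk4, the kinase of D-type cyclins, averaged 8.44 ± 0.07 in OB-TUDCA, 8.29 ± 0.16 in OB-control and 8.34 ± 0.12 in N-control livers. Ccnd2, another D-type cyclin, was lowest in OB-control livers, with 6.87, 6.91 and 7.14 in OB-TUDCA livers, 6.64, 6.54 and 6.73 in OB-control livers and 7.06, 7.13 and 7.08 in N-control livers. Its OB-control arrays lay below all others, at -0.45 (SE 0.09, adjusted p = 0.0626) against N-control, and OB-TUDCA lay above OB-control by 0.34 (SE 0.09, adjusted p = 0.161). Ccnd3 and Ccng1 had an adjusted p of at least 0.437 in every comparison.

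Of 7 measured inhibitors of cyclin-dependent kinases 0 were called in any comparison. Cdkn1b (p27) averaged 6.06 ± 0.20 in OB-TUDCA, 6.08 ± 0.06 in OB-control and 6.31 ± 0.23 in N-control livers. Cdkn1a (p21) and Trp53 had no single-symbol probe set and were not analysed here. Of 22 retinoblastoma, E2F and MuvB factors, 1 was called, lower in OB-TUDCA against N-control (1.89% of all genes). This was Rbl2 (p130), the pocket protein of resting cells. It was 7.82, 7.80 and 7.97 in OB-TUDCA livers, 7.96, 8.03 and 7.85 in OB-control livers and 8.60, 8.21 and 8.31 in N-control livers (OB-TUDCA against N-control -0.51, SE 0.11, adjusted p = 0.042). Its call was lost whichever of the 9 arrays was left out (adjusted p between 0.0521 and 0.143), and in 12 of 18 alternatives in all. Rb1 averaged 6.26 ± 0.33 in OB-TUDCA, 6.38 ± 0.26 in OB-control and 6.63 ± 0.27 in N-control livers. Foxm1 and Mybl2, the activators of mitotic genes, Myc, and the repressors E2f7 and E2f8 had log2 differences between -0.47 and 0.28 and an adjusted p of at least 0.21 in every comparison.

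Of the 42 other replication genes, 1 was called lower in OB-TUDCA against OB-control livers (0.186% of all genes) and 2 in OB-TUDCA against N-control (1.89%). In OB-control against N-control 0 were called, and an unadjusted p under 0.05 was reached by 2 upward and 7 downward (6.55% and 5.59% of all genes). Rpa1, the large subunit of the protein that coats single-stranded DNA, was 6.35, 6.29 and 6.37 in OB-TUDCA livers, 6.93, 6.72 and 6.79 in OB-control livers and 6.64, 6.61 and 6.54 in N-control livers. It was the only listed cell cycle gene called in OB-TUDCA against OB-control (-0.48, SE 0.08, adjusted p = 0.0489), with no overlap between any of the groups. The call was lost whichever of the 9 arrays was left out, with an adjusted p between 0.055 and 0.163 and a difference between -0.52 and -0.42, and in 14 of 18 alternatives in all, among them the fit of only those 2 groups (0.164) and that with the acinar mean (0.0935). Mcm10, which helps to fire origins, was 5.49, 4.87 and 5.38 in OB-TUDCA livers, 5.41, 5.61 and 5.15 in OB-control livers and 6.40, 6.23 and 5.92 in N-control livers (OB-TUDCA against N-control -0.94, SE 0.19, 1.91-fold lower, adjusted p = 0.0297). Rfc1, the large subunit of the clamp loader, differed by -0.41 (SE 0.08, adjusted p = 0.0331) in the same comparison. Both calls were lost without N-control replicate 1 or 2, OB-control replicate 1, or OB-TUDCA replicate 2 or 3, at an adjusted p of up to 0.128 for Mcm10 and 0.137 for Rfc1. Each was lost in 7 of 18 alternatives in all. Origin licensing factors Cdc6 and Cdt1 were not called, with Cdc6 at 4.43, 4.58 and 4.04 in OB-TUDCA livers, 4.07, 4.02 and 4.02 in OB-control livers and 3.89, 4.03 and 3.87 in N-control livers (OB-TUDCA against N-control 0.42, SE 0.13, adjusted p = 0.112).

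Of 16 genes of the DNA damage checkpoint and p53 response, Sesn2 alone was called, higher in OB-TUDCA against N-control (1.35% of all genes). It codes for sestrin 2, which restrains mTORC1 under stress, and rose in OB-TUDCA livers against N-control livers, with 6.54, 6.45 and 6.66 in OB-TUDCA, 5.80, 6.07 and 6.07 in OB-control and 5.33, 5.98 and 5.89 in N-control livers (0.82, SE 0.16, adjusted p = 0.0294). That call was lost without N-control replicate 1 or any 1 of the OB-TUDCA arrays (adjusted p of up to 0.0923), and in 5 of 18 alternatives in all. For OB-TUDCA against OB-control, 0 of the 16 were called, 3 lay past 1.5-fold higher and 1 lower (1.11% and 1.3% of all genes), and 4 were higher and 1 lower without overlap (7.26% and 6.53%). Gadd45a, a growth arrest gene, was 6.21, 6.46 and 6.37 in OB-TUDCA livers, 7.03, 7.96 and 6.44 in OB-control livers and 6.44, 6.16 and 5.96 in N-control livers, with a spread in OB-control as wide as the difference (OB-TUDCA against OB-control -0.80, SE 0.31, adjusted p = 0.344). Its relatives Gadd45b and Gadd45g, chosen after their values were seen, had differences of the other sign. Gadd45b was 5.87, 5.74 and 6.91 in OB-TUDCA livers, 5.26, 5.07 and 5.07 in OB-control livers and 5.47, 5.68 and 5.57 in N-control livers (OB-TUDCA against OB-control 1.04, SE 0.26, adjusted p = 0.126). Gadd45g was 7.17, 6.85 and 8.17 in OB-TUDCA livers, 4.77, 7.29 and 5.56 in OB-control livers and 6.60, 8.32 and 6.60 in N-control livers, with overlap between all groups (OB-TUDCA against OB-control 1.52, SE 0.67, adjusted p = 0.41).

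Markers of the cell types that whole liver can hold were read beside these results. All 8 hepatocyte markers were detected, led by Alb (mean signal 13.41) and Ttr (13.03), so the tissue label held. Their mean was 12.73 to 12.84 in OB-TUDCA, 12.64 to 12.80 in OB-control and 12.90 to 12.95 in N-control livers. For OB-control against N-control, 7 of the 8 had a lower mean, 4 of them without overlap and 4 at an unadjusted p under 0.05 (6.77% and 5.59% of all genes). For OB-TUDCA against N-control, 7 had a lower mean, 5 of them without overlap (8.95%), and 0 were called in either comparison. Array medians over all probe sets lay between 4.50 and 4.58, and arrays correlated at 0.988 to 0.995 within groups. N-control replicate 2 stood apart in 21 pancreatic acinar genes, with a mean of 9.79 against 3.82 to 4.22 on the 8 others. Macrophage markers (12 of 12 detected) averaged 7.06 to 7.71 in OB-TUDCA, 6.98 to 7.36 in OB-control and 6.96 to 7.31 in N-control livers. Erythroid precursor markers (4 of 6 detected) averaged 5.55 to 5.80 in OB-TUDCA, 5.38 to 5.44 in OB-control and 5.33 to 5.43 in N-control livers, with the transferrin receptor Tfrc, which hepatocytes also express, higher in OB-TUDCA than in N-control livers by 1.85 (SE 0.39, adjusted p = 0.0393) and Alas2, the first enzyme of erythroid heme synthesis, lower by a log2 difference of -0.85 (SE 0.14, adjusted p = 0.0152). Slc4a1, the anion exchanger band 3 of the red cell membrane, chosen after its values were seen, was 5.16, 5.64 and 5.49 in OB-TUDCA livers, 4.91, 4.91 and 4.85 in OB-control livers and 4.77, 4.78 and 4.59 in N-control livers, also higher in OB-TUDCA than in N-control livers (0.71, SE 0.12, adjusted p = 0.0155). So 2 of the 6 were called higher and 1 lower in that comparison (1.35% and 1.89% of all genes).

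Lymphocyte markers (2 of 10 detected) averaged 3.70 to 3.76 in OB-TUDCA, 3.70 to 3.80 in OB-control and 3.70 to 3.83 in N-control livers. Neutrophil and myeloid precursor markers (2 of 10 detected) averaged 4.11 to 4.56 in OB-TUDCA, 4.06 to 4.07 in OB-control and 3.73 to 3.91 in N-control livers; Lcn2, which hepatocytes can also express, was higher in OB-TUDCA than in N-control livers by 3.97 (SE 0.45, adjusted p = 0.00342). Of the endothelial markers (8 of 8 detected), Lyve1 was 8.83, 9.81 and 9.60 in OB-TUDCA livers, 7.31, 7.38 and 8.71 in OB-control livers and 7.25, 6.88 and 6.79 in N-control livers, with replicate 3 the highest of the OB-control arrays (OB-TUDCA against N-control 2.44, SE 0.37, adjusted p = 0.011). Kdr, the VEGF receptor of endothelial cells, went the other way, at 7.68, 6.76 and 6.77 in OB-TUDCA livers, 8.05, 7.95 and 8.01 in OB-control livers and 8.36, 8.09 and 8.26 in N-control livers (OB-TUDCA against N-control -1.17, SE 0.22, adjusted p = 0.0218). The endothelial mean was 7.27 to 7.33 in OB-TUDCA, 7.02 to 7.33 in OB-control and 7.14 to 7.30 in N-control livers. Stellate cell markers (9 of 9 detected) averaged 6.99 to 7.23 in OB-TUDCA, 6.87 to 7.05 in OB-control and 6.83 to 6.92 in N-control livers, and cholangiocyte markers (4 of 5 detected) 4.82 to 4.99 in OB-TUDCA, 4.51 to 4.74 in OB-control and 4.58 to 5.07 in N-control livers. The macrophage mean was highest within OB-control in replicate 3 (7.36, against 6.98 and 7.21), as was the endothelial mean (7.33). The neutrophil and myeloid mean (4.07) was nearly equal in replicates 2 and 3. Replicate 3 had the lowest hepatocyte (12.64), lymphocyte (3.70), erythroid (5.38), stellate (6.87) and cholangiocyte (4.51) means of the OB-control arrays. Among these marker calls, that of Lcn2 held whichever array was left out. Those of the others were lost without OB-TUDCA replicate 2 (Tfrc, Alas2, Slc4a1, Kdr and Lyve1), without OB-TUDCA replicate 3 (Tfrc, Slc4a1 and Kdr), without N-control replicate 1 (the same 3), 2 (the same 3 and Alas2) or 3 (Tfrc and Kdr), or without OB-control replicate 1 or 3 (Tfrc), at an adjusted p of up to 0.152. Over all 18 alternatives, the call was lost in 9 for Tfrc, 7 for Kdr, 5 for Slc4a1, 4 for Alas2, 1 for Lyve1 and 0 for Lcn2. The part of hepatocytes or other cell types in the levels of Ccne1, Rrm2 or the mitotic genes was not tested.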

How the data were processed

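Liver RNA of 9 mice was measured by Affymetrix Mouse Gene 1.0 ST arrays, 1 per mouse. The deposited log2 signals were made by the authors with RMA in Affymetrix Expression Console (version not given in the sources used here), which corrects background, equalizes the arrays' distributions and summarizes each probe set. Of 35556 probe sets, the 21789 annotated with 1 symbol were averaged per symbol to 19938 genes; 1621 with several symbols and 12146 unnamed here were left out.

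Groups were taken from the sample labels. All 9 arrays entered 1 fit of 3 group means in limma 3.58.1 (R 4.3.3), with 6 residual and 3.33 prior degrees of freedom, and p-values were two-sided and adjusted by Benjamini-Hochberg over all genes. The fit was tested on simulated data. Arrays have no read depth, and their number limits the precision. The labels call the replicates biological. The SAM selection of the methods was tuned on these arrays and was not used. Every member was named. Of other lists, genes past the threshold (at most 6) and a fixed set of regulators were named. For markers the rule was the 2 with the highest signal in each list. Outside the hepatocyte list, however, only markers past the threshold are given with values. The others under that rule (Vsig4, C1qb, Cd3e, Nkg7, Camp, Dcn, Reln, Sox9 and Krt19) were not called in any comparison. The members and lists were chosen with earlier results of these data known. Alternatives were a filter on low signal, a second quantile normalization, median centring, another variance prior, array weights, only the 2 groups compared, single probe sets, an acinar covariate, leaving out 1 array at a time, and a block for the replicate number. Promoters came from the RefSeq table of GRCm38.p6. Tables and plots used pandas 2.3.3 and matplotlib 3.10.9 in Python 3.11.15.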

Additional observations from a re-analysis of the deposited data

How the results depend on the processing

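The counts of called members and their median differences kept their direction under the alternatives tried, with the following exceptions. The 2 members called higher in OB-TUDCA against N-control became 1 (Ccne1) with only the arrays of those 2 groups and 1 once the mean of the pancreatic acinar genes entered the fit, where Rrm2 had an adjusted p of 0.0693 and 0.0973, and the count ran from 0 to 3 with 1 array left out. It was 3 without OB-control replicate 2, 0 without OB-TUDCA replicate 2 or 3, and 1 without N-control replicate 2 or 3 or OB-control replicate 1. Of all genes, 345 were called with only those 2 groups and 329 with the acinar mean, against 646 in the main fit. With 1 array left out, that count of all genes ran from 193 to 788. It was 193 without OB-TUDCA replicate 2 and 325 without OB-TUDCA replicate 3. In OB-control against N-control the members called higher ran from 0 to 2, the 2 without OB-control replicate 2. In OB-TUDCA against OB-control they ran from 0 to 0. The counts of all genes called ran from 60 to 266 and from 0 to 135 in these comparisons. The median difference of the members ran from -0.12 to 0.02, from 0.08 to 0.32 and from 0.11 to 0.17 for OB-TUDCA against OB-control, OB-control against N-control and OB-TUDCA against N-control. The counts of mitotic genes by direction were followed after seeing the data. A filter that removed a share of 0.33 of all genes, those of lowest signal, kept 11 mitotic genes, with 10 of them higher in OB-control against N-control and 6 lower in OB-TUDCA against OB-control; with 1 array left out, those counts over 19 genes ran from 14 to 17 and from 8 to 16. Ube2c passed in OB-TUDCA against N-control with this filter (adjusted p = 0.0411) and without N-control replicate 1 (0.0363), and Mcm2 without OB-control replicate 2 (0.0454). The 25 member differences of lowest unadjusted p were followed through up to 18 alternatives each, giving 447 pairs. Only the 2 that were called, Ccne1 and Rrm2 in OB-TUDCA against N-control, could lose a call, and this happened in 10 pairs. A call was gained in 5 pairs, and the direction was reversed in 0. The 13 calls of listed genes that are no members, followed after seeing the data, were lost in 73 of 234 such pairs and reversed in 0. The cause was not tested, save that leaving out arrays leaves fewer samples.

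Replicate numbers are shared between groups, but arrays of the same number deviated together only weakly (correlations of -0.075 to 0.209, 4 of 9 above 0.1), so they were not taken as pairs. With the replicate number as a block, 0 members were called in OB-TUDCA against OB-control and in OB-control against N-control and 2 in OB-TUDCA against N-control, with medians of -0.07, 0.21 and 0.15. Of all genes, 871 were called in OB-TUDCA against N-control with the block, against 646 in the main fit.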
